A study of Mus musculus with 16 samples.

Results

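Brown adipose tissue (BAT) of 8 week-old mice was compared with that of 4 week-old mice, by setting the 3 arrays titled as 8 weeks against the 3 titled as 4 weeks. These are 6 of the 16 arrays of a developmental series on C57BL6/N mice, which also sampled BAT at embryonic day 18 (E18) and postnatal days 4 and 10 (P4 and P10). Each array measured total RNA of the tissue, labelled with the dye Cy3 and hybridised alone to an Agilent array. The 6 arrays share strain, tissue and slide and differ by age, and no treatment or allele is named for any of them. Neither sex nor the time of day of collection is given in the sources used here. No label tells whether arrays of the same age stem from separate mice. The p-values here therefore reflect only the spread within ages over all 16 arrays, part or all of which may be technical. The comparison asks which transcripts rose or fell in the depot between weaning age and young adulthood, across all genes and with the genes of the sarcomere described apart.

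Brown fat is the depot in which mitochondria, uncoupled by the protein Ucp1, burn lipid and glucose to make heat under the control of sympathetic nerves. Its precursors share an embryonic origin with skeletal muscle, and in the mouse the interscapular depot lies against muscle. The sarcomere is the contractile unit of striated muscle: myosin thick filaments slide along actin thin filaments that are anchored at the Z disc, with titin spanning the unit up to the M band.

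The label of the tissue was checked against fixed markers. Levels are given here as the log2 of the scanner's processed signal minus the 75th percentile of its array, so that 0 is that percentile and a difference of 1 is a doubling of signal. The level of Ucp1 was 9.31, 9.43 and 9.55 at 4 weeks and 8.78, 8.73 and 8.91 at 8 weeks, and that of Cidea, another brown adipocyte gene, was 9.88 to 9.94 and 10.1 to 10.3. Fabp4, a general adipocyte gene, read 9.49 to 9.52 and 9.45 to 9.64. These 3 adipocyte genes were therefore bright on every array of both ages. Prdm16, a brown adipocyte marker of lower level, read 0.51 to 0.73 and 1.15 to 1.17. Acta1, the skeletal muscle actin, was well above background on all 6 arrays too, at 4.96, 5.02 and 5.04 at 4 weeks and -1.32, -1.32 and -1.23 at 8 weeks. The other fixed muscle markers, Ckm, Ttn, Tnnt3 and Myh4, were above background on all 3 arrays at 4 weeks and on 0 of 3 at 8 weeks. Eif2s3y and Ddx3y, on the Y chromosome, were well above background on all 6 arrays, and the probes of Xist on 0 of 6.

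The 75th percentile of signal was 523.2 to 613.4 intensity units at 4 weeks and 449.6 to 486.5 at 8 weeks, and 48.92% to 54.46% and 45.73% to 51.1% of probes were well above background. The 4 week arrays all lie in row 1 of the slide and the 8 week arrays all in row 2, so age and row cannot be told apart. Over all genes tested, arrays of 1 age correlated at 0.994 to 0.997 and arrays of different ages at 0.966 to 0.970. The median SD of a gene was 0.0796 (log2) within 4 weeks and 0.0657 within 8 weeks, and the median size of the change between the ages was 0.234. The number of arrays limits the precision.

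The transcriptome of the depot differed between the ages at about as many genes as it did not. Of 13259 genes tested, 3320 rose (25.0%) and 3354 fell (25.3%) from 4 to 8 weeks, together 6674 (50.3%), by limma's moderated test at a Benjamini-Hochberg adjusted p under 0.05. Most of these changes were small: 316 genes rose (2.38%) and 474 fell (3.57%) by at least 2-fold, together 5.96%, and the median change of all genes was 0.0087 (log2). These counts use the fitted fold also for genes not above background on any array of one age. With such genes at the smallest fold their signals allow, 315 rose and 416 fell by at least 2-fold, and 31 rose and 112 fell by at least 4-fold. For 8256 genes (62.3%) no array of one age lay within the range of the other age. When arrays were scaled by their median in place of the 75th percentile, 3324 genes passed, 1226 up (9.25%) and 2098 down (15.8%). The even split of rises and falls thus depends on the scaling. Counts of a list stand beside the 25.0% and 25.3% of all genes, and counts with median scaling beside 9.25% and 15.8%. Removing the 91 measured genes of the muscle lists left 6590 of 13168 called, 351 of them down at least 2-fold and 63 down at least 4-fold with dim genes at that bound.

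**Figure D1:**
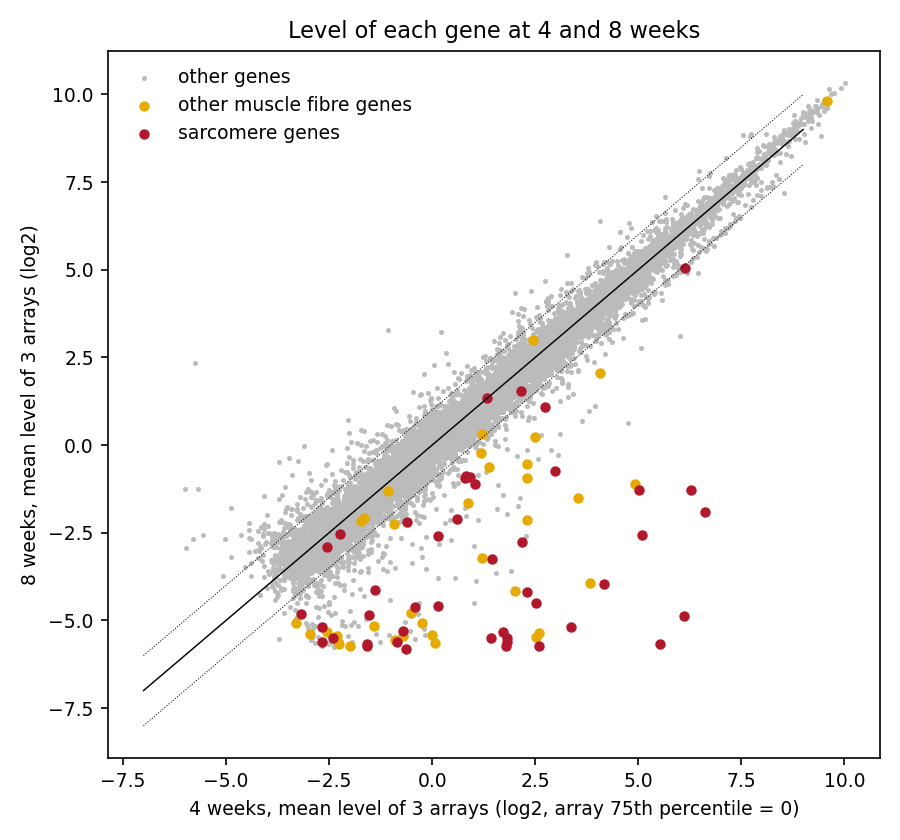
Mean level of each of the 13259 genes on the 3 arrays at 4 weeks (x axis) and the 3 at 8 weeks (y axis), in log2 with the 75th percentile of the array at 0; the solid line marks equal levels and the dotted lines a 2-fold difference. Most genes lie between the dotted lines, while sarcomere genes and other muscle fibre genes lie far below the diagonal.

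Genes of the sarcomere fell together between 4 and 8 weeks. Of 53 genes on the list, 45 were measured; 43 fell, 38 of them by at least 2-fold with dim genes at their bound, 0 rose and 2 did not pass, against 25.3% of all genes that fell. The median change was -4.21 (log2), against 0.0087 over all genes. All 45 were well above background on every 4 week array, and 25 were above it on no 8 week array, against 1.33% of all genes tested. A gene that passed the filter on dim probes only through its 4 week arrays had to come out lower at 8 weeks, so this count describes the measured genes and not the whole list. The other 8 (Myh3, Myh6, Mybpc3, Tnni3, Tnnt2, Lmod2, Mypn and Trim55) were too dim to be tested. Where every array of an age is dim, the fold is given as at least N: the mean of the bright age over the mean, per array, of the higher of the gene's own signal and the lowest signal well above background. With the 25 dim genes at that bound the median change was -2.77. Among the 19 sarcomere genes above background on all 6 arrays 17 fell, with a median of -1.82, and the median of the 45 was -2.16 with normexp, another background correction that starts from the raw spot and background signals and pulls dim values together. In bulk tissue, fewer cells of a type and less RNA per cell cannot be told apart. The part of any adjoining muscle collected with the depot in these values was not tested.

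The thick filament list held the furthest falls, and all 12 of its measured genes fell (median -6.73, or -5.36 with 9 at their bound). Myh4, the myosin heavy chain of the fastest fibres, read 5.51, 5.59 and 5.45 at 4 weeks and -5.61, -5.41 and -5.99 at 8 weeks. It was at least 513-fold lower at 8 weeks (limma adjusted p = 1.3e-15). Myh8, the perinatal heavy chain, went from 6.10, 6.06 and 6.21 to -5.17, -5.17 and -4.28, at least 782-fold lower (limma adjusted p = 6.9e-15). Both genes were bright on every array of the younger age and above background on no array of the older. Myh2 and Myh1, the heavy chains of other fast fibres, were at least 116-fold and 67.4-fold lower, and Myh7, that of slow fibres, at least 55.7-fold. The heavy chains of the Myh cluster are near-identical in sequence, and their probes could share signal, so the split among them is uncertain. The light chains fell less evenly. Myl2 was at least 64.2-fold lower, Myl3 fell 3.12-fold, and Myl1, the essential light chain of fast fibres, fell only 2.13-fold (log2 -1.09 ± 0.08 SE) and still read 5.09, 5.08 and 4.98 at 8 weeks. Myosin-binding proteins Mybpc2 and Mybpc1 fell too, the first at least 30.3-fold and the second 26.2-fold (10.4-fold with normexp), Mybpc1 being above background on 2 of 3 arrays at 8 weeks. The regulatory light chain Mylpf and the binding protein Mybph, each measured by 1 probe, already read near background at 4 weeks. They were at least 2.11-fold and 1.23-fold lower at 8 weeks. How well these probes respond was not tested.

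All 11 measured thin filament genes fell (median -4.21, or -3.62 with 5 at their bound). Here several genes stayed above background at both ages, so a fold could be given. Tnni2, the inhibitory troponin of fast fibres, read 6.59, 6.68 and 6.63 at 4 weeks and -1.73, -1.99 and -1.98 at 8 weeks, a 370-fold fall (log2 -8.53 ± 0.06, limma adjusted p = 3.1e-18), or 218-fold with normexp background correction. Tnnc2, the calcium-binding troponin of fast fibres, went from 6.25, 6.33 and 6.23 to -1.07, -1.39 and -1.40, a 189-fold fall. Acta1 fell 78.8-fold (log2 -6.30 ± 0.05, limma adjusted p = 4e-18). For these genes the gap between ages exceeded the spread within an age many times over. Tnnt3, the tropomyosin-binding troponin of fast fibres, was at least 201-fold lower. Among slow-fibre troponins Tnnt1 fell 13.3-fold, while Tnni1 and Tnnc1 were at least 8.42-fold and 3.87-fold lower. Nebulin (Neb), which runs along the thin filament, was at least 12.3-fold lower, cardiac actin (Actc1) at least 4.3-fold, and the pointed-end proteins Tmod4 and Lmod3 fell 4.44-fold and 3.54-fold.

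At the Z disc 13 of 14 measured genes fell (median -3.41, or -2.72 with 6 at their bound). Tcap, the telethonin that caps titin, read 5.14, 5.04 and 5.07 at 4 weeks and -2.76, -2.54 and -2.38 at 8 weeks, a 200-fold fall (limma adjusted p = 8.2e-16), or 106-fold with normexp. The actinin of fast fibres, Actn3, was at least 39.6-fold lower and Actn2 fell 6.63-fold (3.97-fold with normexp). Myotilin (Myot) was at least 37.1-fold lower, Myoz1 fell 30.9-fold (15.2-fold with normexp), and Csrp3, Myoz2 and Smpx were at least 7.17-fold, 6.84-fold and 3.72-fold lower. Filamin C (Flnc) fell 6.52-fold (4.14-fold with normexp), Pdlim3 3.33-fold and Ldb3 3.28-fold, and Xirp2 was at least 1.76-fold lower. Xirp1 fell by 0.35 (log2), a call lost in 6 of 21 alternative settings, and Myoz3 did not pass (log2 -0.29 ± 0.23), although it did as a fall with only the 6 arrays or the 8 arrays of the slide in the fit and by the mean of its probes (log2 -1.38).

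Of 8 titin and M band genes 7 fell (median -3.54, or -1.75 with 5 at their bound). Titin (Ttn), whose 3 probes all fell, read 1.81, 1.80 and 1.75 at 4 weeks and -5.67, -5.41 and -6.11 at 8 weeks, at least 38.7-fold lower (limma adjusted p = 1.9e-13). Myom2 was at least 39.3-fold lower, whereas the related M band genes Myom1 and Myom3 fell 3.03-fold and 1.55-fold. The titin-associated ubiquitin ligases Trim63 and Trim54 were at least 6.18-fold and 3.76-fold lower. Unc45b, a myosin chaperone, did not change beyond its error: it read 1.26, 1.34 and 1.41 against 1.35, 1.30 and 1.40 (log2 0.01 ± 0.07, limma adjusted p = 0.89).

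**Figure D2:**
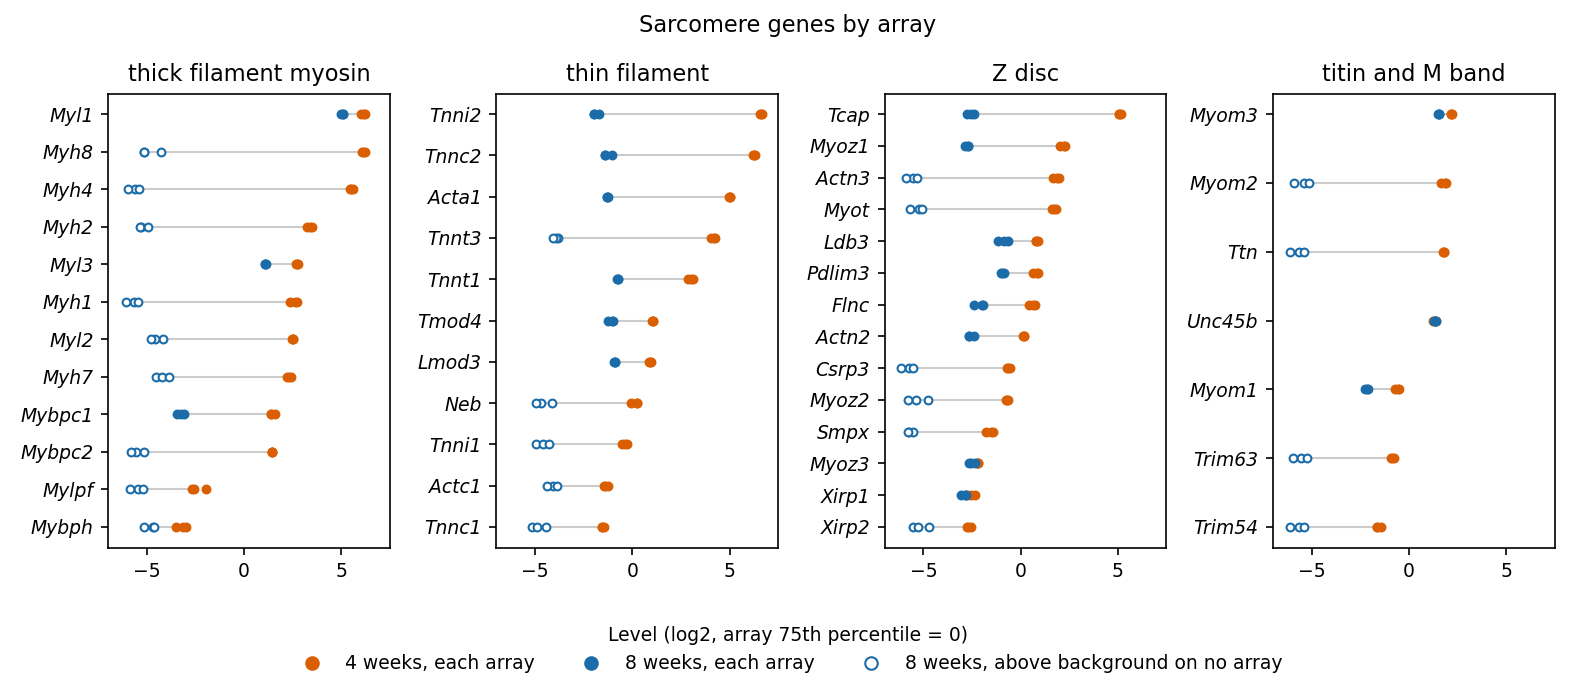
Level of the sarcomere genes named here on each of the 3 arrays at 4 weeks (orange) and at 8 weeks (blue), in log2 with the 75th percentile of the array at 0, grouped by place in the sarcomere; open circles mark genes above background on no 8 week array. For genes with open circles the distance between the ages is only a bound; the 3 arrays of each age overlap for Unc45b, and Myl1 stays near 5 at 8 weeks.

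Muscle genes outside the sarcomere moved with it. Of 35 measured genes for calcium handling, energy supply and control in muscle fibres, 32 fell, 1 rose and 2 did not pass (median -3.23, or -2.27 with 17 at their bound). These 17 passed the filter only through the 4 week arrays and had to come out lower, and 14 genes fell when probes had to be above background on all 6 arrays. The muscle creatine kinases Ckm and Ckmt2 were at least 64.1-fold and 67.8-fold lower, the muscle cytochrome oxidase subunit Cox6a2 at least 158-fold, and the calcium channel Cacna1s at least 45.0-fold. The exception was Smyd1, a muscle histone methyltransferase, which rose from 2.52, 2.24 and 2.56 to 3.06, 2.95 and 3.02 (log2 0.57 ± 0.13, limma adjusted p = 0.0018). It was named after its value was seen. The parvalbumin gene (Pvalb) and myoglobin (Mb) fell 65.1-fold and 32.6-fold, also named after their values were seen. The summed signal of this list was 878 to 930 at 4 weeks and 885 to 932 at 8 weeks, most of it from Gpd1, an enzyme that fat makes as well, which read 9.58 and 9.80 (means of 3 arrays) and did not pass. Of 11 measured filament and Z disc genes that many cell types also make, 7 fell and 1 rose. Among these Tpm1 fell 4.84-fold and Tpm2 1.97-fold, both tropomyosins, although 1 of 5 probes of Tpm1 rose and the mean of its probes fell only 1.83-fold. Tmod1 was at least 1.37-fold lower, and Fhl1 fell 1.6-fold.

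The level of the sarcomere genes followed no simple course over the series. Of the 10 arrays of the earlier ages 8 lie on the other slide, so age and slide are partly confounded there, and the Y-linked gene Ddx3y read -7.06 to -6.49 on the P10 arrays against 2.13 to 2.53 on the rest. The part of slide and of this difference in comparisons with E18, P4 and P10 was not tested. The mean level of the 45 genes was 0.67 to 0.71 on the E18 arrays, -2.35 to -2.23 at P4, 0.55 to 0.63 at P10, 1.23 to 1.28 at 4 weeks and -3.42 to -3.24 at 8 weeks. The 4 week arrays were thus the highest and the 8 week arrays the lowest of the 16, and P4 lay lower than the ages on either side. The genes were kept for their signal at 4 and 8 weeks, and 25 of the 45 passed only through 4 weeks. The place of these 2 ages in the order is therefore partly set by the filter. The summed signal of the list, in units of the 75th percentile, was 533 to 543 at 4 weeks and 45.0 to 47.6 at 8 weeks. Myh4 read -3.35 to -2.92 at E18, -4.51 to -4.07 at P4 and 3.29 to 3.55 at P10, and Myh8 5.17 to 5.21, 0.65 to 0.86 and 5.14 to 5.32. The signal for Myh8 was thus higher on the 4 week arrays than at E18. Since probes of the heavy chains could share signal, the level of the perinatal chain itself is uncertain. Over the 10 arrays of the other ages, 7.81% of all genes tracked the sarcomere mean at a Pearson r over 0.9, a description in which all points share the ages. Outside the muscle lists 7.4% did (975 of 13168). With dim genes at their bound, the share outside these lists was 16.2% (57 of 351) among genes down at least 2-fold from 4 to 8 weeks. It was 34.9% (22 of 63) among those down at least 4-fold, and 9.21% (29 of 315) among those up at least 2-fold. When the genes that tracked it were left out, 5965 of 12193 genes outside the muscle lists still passed, 2948 up and 3017 down.

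Promoters of sarcomere genes are shown because the genes fell together. The sequences are the 250 bases before the start site from RefSeq (GRCm38.p6), with the coding strand read 5′ to 3′, and 32 of the 43 genes that fell had an entry, with 38 promoters. Both strands were searched for the CArG box, the element of serum response factor, for the MEF2 box, for TATAAA, and for CAGCTG, an E box of muscle regulatory factors; CArG and MEF2 boxes can overlap TATAAA. A CArG box lay in 18.4% of these promoters against 1.47% of all 32851 promoters, a MEF2 box in 7.89% against 0.508%, TATAAA in 23.7% against 12.4% and CAGCTG in 34.2% against 13%. GGTCA, a nuclear receptor core motif searched for comparison, was in 39.5% against 35.2%. A match describes the letters and shows no binding. In the promoter of Acta1 (chr8:123894776-123895025, minus strand) and of Myh4 (chr11:67237562-67237811, plus strand), capitals mark the CArG box and TATAAA on either strand. The CArG box begins 73 bases before the start of Acta1 and 104 before that of Myh4.
Acta1: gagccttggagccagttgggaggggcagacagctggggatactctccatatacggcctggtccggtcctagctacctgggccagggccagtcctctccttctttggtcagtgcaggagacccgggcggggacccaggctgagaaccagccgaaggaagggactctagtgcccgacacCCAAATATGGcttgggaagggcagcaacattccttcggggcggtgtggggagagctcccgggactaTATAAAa
Myh4: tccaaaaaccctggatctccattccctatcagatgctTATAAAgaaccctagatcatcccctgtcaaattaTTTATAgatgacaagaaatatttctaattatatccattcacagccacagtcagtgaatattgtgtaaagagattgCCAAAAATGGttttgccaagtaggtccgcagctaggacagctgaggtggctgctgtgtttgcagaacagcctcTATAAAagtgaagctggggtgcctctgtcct

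Genes of brown fat thermogenesis mostly fell, but the genes that define the brown adipocyte did so little or not at all. Of 26 measured genes 16 fell, 6 rose and 4 did not pass, with a median of -0.34 (log2); with arrays scaled by their median 2 rose. Dio2, the deiodinase that activates thyroid hormone in brown fat, read 1.88, 1.83 and 1.75 at 4 weeks and -1.96, -1.90 and -1.99 at 8 weeks, a 13.7-fold fall (log2 -3.77 ± 0.06, limma adjusted p = 5.2e-15), or 8.88-fold with normexp. Gk, the glycerol kinase gene, fell 7.75-fold, from 2.59, 2.61 and 2.51 to -0.54, -0.22 and -0.40. These 2 genes fell further than any other of the list. Elovl3, a cold-induced fatty acid elongase, fell 3.37-fold, and the coactivator Ppargc1a, which drives mitochondrial biogenesis, fell from 3.19, 2.96 and 3.13 to 2.16, 2.22 and 2.23 (1.85-fold). Ucp1 fell 1.54-fold (log2 -0.62 ± 0.16, limma adjusted p = 0.0043), and its arrays did not overlap between the ages. Prdm16, the regulator of brown fat identity, rose from 0.51, 0.64 and 0.73 to 1.17, 1.15 and 1.15 (1.44-fold). Cox7a1, a cytochrome oxidase subunit of brown fat and muscle, rose 1.3-fold, a call that was lost with quantile normalization, with median scaling and in the series matrix. The rise of Cidea (log2 0.26 ± 0.10, limma adjusted p = 0.037) was lost in 11 of 21 settings, among them each array left out in turn except 1.

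**Figure D3:**
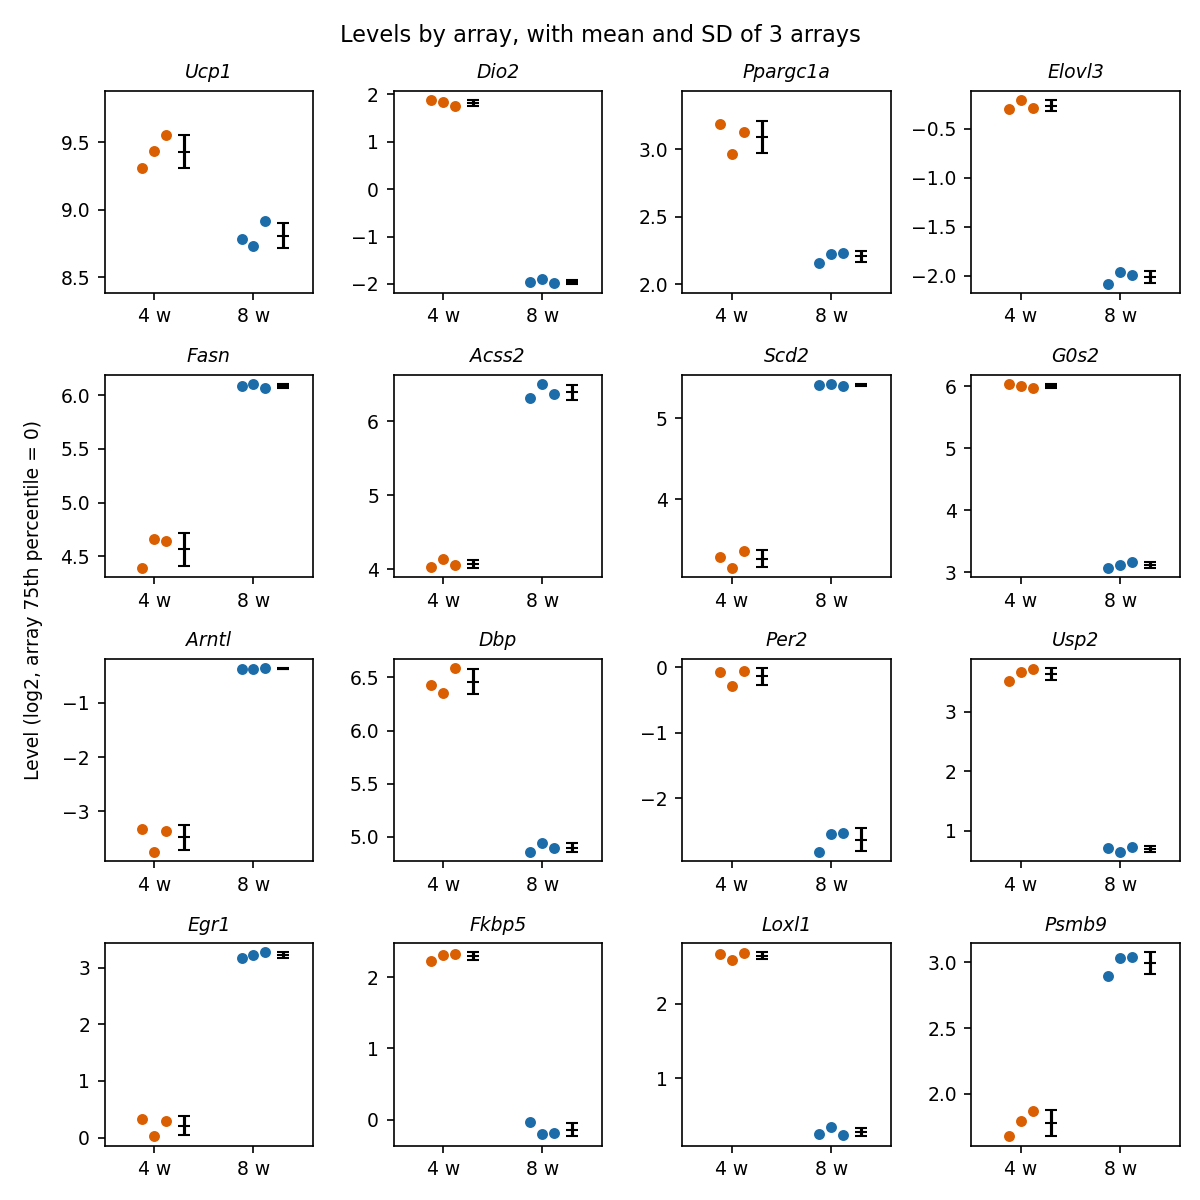
Level of 16 genes on each of the 3 arrays at 4 weeks (orange) and 8 weeks (blue), in log2 with the 75th percentile of the array at 0, with mean and SD of the 3 arrays beside the points; the y axis differs between panels and does not start at 0. The arrays of the 2 ages are apart in each panel, a condition of the rule that picked genes from the lists. Dio2 and Arntl differ by over 3 log2 units.

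Mitochondrial genes rose slightly and mostly together, in a way that depended on the scaling of the arrays. Of 55 respiratory chain genes 42 rose (76.4%, against 25.0% of all genes), 2 fell and 11 did not pass, with a median of 0.28 (log2). The count that rose was 22 with quantile normalization and 20 in the series matrix, where the median was 0.12 and 0.11. With median scaling 3 rose (5.45%), against 9.25% of all genes in that setting, with a median of 0.23. The complex I subunits Ndufs3 and Ndufs8 rose 1.43-fold and 1.39-fold and the complex IV subunit Cox7a2 1.38-fold; the calls of Ndufs8 and Cox7a2 were lost with median scaling. Atp5g1, which codes for subunit c of ATP synthase, went the other way, from 4.47, 4.50 and 4.52 to 3.28, 3.26 and 3.36 (2.29-fold lower, limma adjusted p = 2.4e-09). Subunit c is made from several genes, of which this is 1. In the tricarboxylic acid cycle list 11 of 19 genes rose (4 with median scaling) and 2 fell. Pdha1 and Pdhb, subunits of pyruvate dehydrogenase, rose 1.44-fold and 1.38-fold, while Pdhx, another component of the pyruvate dehydrogenase complex, fell 1.84-fold.

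Genes that make fatty acids rose. Of 22 measured genes of fatty acid and triglyceride synthesis 13 rose, 5 fell and 4 did not pass, with a median of 0.61. Acss2, which makes acetyl-CoA from acetate, rose from 4.03, 4.14 and 4.06 to 6.31, 6.50 and 6.37 (4.98-fold, limma adjusted p = 8.1e-12). Scd2, a stearoyl-CoA desaturase, rose 4.45-fold, the citrate carrier Slc25a1 2.96-fold, and Fasn, the fatty acid synthase, 2.86-fold from 4.39, 4.66 and 4.64 to 6.08, 6.10 and 6.06. These 4 genes were picked among those whose arrays do not overlap between the ages, so their separation is no further result. The 5 that fell were Gpam, Srebf1, Dgat1, Lpin1 and Dgat2, named after their values were seen, at -1.18, -1.13, -0.60, -0.22 and -0.20 (log2). All but Srebf1, the transcription factor of the fatty acid genes, act in the joining of fatty acids into triglyceride. In cholesterol synthesis 12 of 21 genes rose and 2 fell (median 0.28). Pmvk, the phosphomevalonate kinase, rose 2.84-fold, the sterol cyclase Lss 2.69-fold and Sqle, the squalene epoxidase, 1.96-fold.

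Genes of lipid droplets and lipolysis mostly fell, 10 of 15 measured (66.7%, against 25.3% of all genes), with 4 up and a median of -0.26. With median scaling 6 fell. G0s2, an inhibitor of the triglyceride lipase, read 6.03, 6.01 and 5.97 at 4 weeks and 3.07, 3.12 and 3.17 at 8 weeks, a 7.38-fold fall (log2 -2.88 ± 0.06, limma adjusted p = 3e-13). The droplet proteins Cidec and Plin5 fell 2.52-fold and 1.86-fold and Fitm2, which acts in droplet formation, 1.77-fold. In fatty acid oxidation and uptake 11 of 24 genes fell and 4 rose, with a median of -0.05. The fallen genes with the largest changes were Acot2 and Ehhadh, of mitochondrial and peroxisomal fatty acid metabolism, at 2.14-fold and 2.09-fold, lipoprotein lipase (Lpl) at 1.83-fold and Cpt1a, the mitochondrial gatekeeper, at 1.59-fold. In glycolysis and glucose uptake 10 of 18 rose (55.6%, against 25.0% of all genes) and 3 fell, and 4 rose with median scaling. The isozymes Aldoc and Aldoa rose 1.74-fold and 1.44-fold, Pfkp 1.66-fold and Pkm 1.37-fold.

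Genes typical of white fat and secreted adipokines fell in 9 of 15 measured cases and rose in 2 (median -0.26). Nnat, an imprinted gene, fell 3.9-fold from 1.05, 1.19 and 1.13 to -0.84, -0.87 and -0.81. The amino acid transporter Slc7a10 fell 3.76-fold, resistin (Retn) 2.72-fold and apelin (Apln) 2.25-fold. Leptin (Lep) fell 1.29-fold (log2 -0.37 ± 0.10, limma adjusted p = 0.0082), and adiponectin (Adipoq) did not pass (log2 -0.11 ± 0.07, limma adjusted p = 0.23), though it passed as a fall with quantile normalization and in the series matrix. In the general adipocyte list 7 of 20 genes rose, 4 fell and 9 did not pass, and the sign of its small median of 0.04 turned with quantile normalization, median scaling, the series matrix and the mean of a gene's probes. Timp4 fell 3-fold and the transcription factor Cebpb 1.98-fold, while the insulin signalling gene Irs2 rose 1.87-fold.

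**Figure D4:**
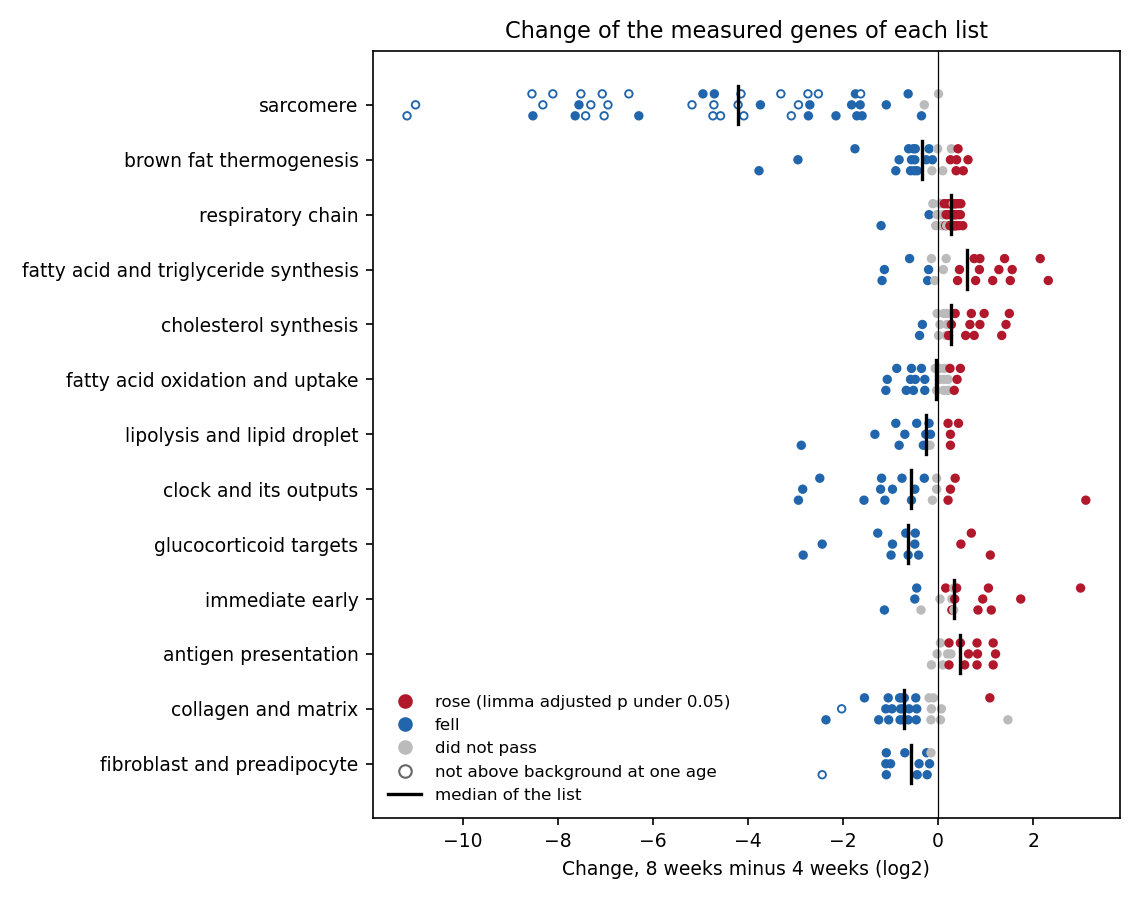
Change from 4 to 8 weeks (8 weeks minus 4 weeks, log2) of every measured gene of 13 lists, 1 point per gene, red where it rose, blue where it fell and grey where it did not pass; black bars are list medians. Open circles are genes not above background on any array of one age, whose plotted change is fitted and not a measured fold; the filled sarcomere points reach -8.53, while most genes of the other lists lie within 3 log2 units of 0.

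Genes of the circadian clock and its direct outputs differed strongly between the ages. Of 19 measured genes 12 fell, 4 rose and 3 did not pass, with a median of -0.56; with median scaling 1 rose. Arntl, which codes for the activator Bmal1, rose from -3.33, -3.75 and -3.36 to -0.37, -0.38 and -0.36, 8.62-fold (log2 3.11 ± 0.09, limma adjusted p = 4.6e-12) or 4.2-fold with normexp, and it was above background on 2 of 3 arrays at 4 weeks. Several genes that this activator is known to drive went down, but not every gene of the clock and its outputs did. Nr1d1 rose by 0.26 (log2), and Bhlhe40 and Nfil3 did not pass, all named after their values were seen. Usp2, a ubiquitin protease under clock control, fell 7.67-fold from 3.51, 3.66 and 3.71 to 0.70, 0.64 and 0.73, and Per2, a repressor of the clock, fell 5.63-fold (3.36-fold with normexp) from -0.07, -0.28 and -0.06 to -2.83, -2.54 and -2.53. Ciart, another repressor, fell from -0.60, -0.48 and -0.41 to -2.20, -2.90 and -4.95, 7.22-fold (limma adjusted p = 0.0003), above background on 1 of 3 arrays at 8 weeks; the fall was 4.14-fold without 8 week replicate 3 and 3.18-fold with normexp. The output factor Dbp, shown after its value was seen, fell 2.94-fold from 6.43, 6.36 and 6.59 to 4.86, 4.94 and 4.90. Arntl was therefore high where Per2, Ciart, Usp2 and Dbp were low. The time of day of collection is not given for either age, and its part in these values was not tested. On the arrays of the other ages Arntl read -0.23 to 0.70, so its 4 week level was the lowest of the series, and Usp2 read 1.39 to 1.81, below its 4 week and above its 8 week level. Dbp read 1.03 to 2.98 there, below both.

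Promoters of clock genes that fell are shown for the elements of the clock itself. Of the 12 genes 10 had a RefSeq entry, with 12 promoters. CACGTG, the E box of the activator pair, reads the same on both strands and was in 5 of 12 (41.7%, those of Bhlhe41, Ciart, Per1 and Tef) against 6.02% of all 32851 promoters of the same length. TTATGTAA, the D box of Dbp, Tef and Hlf, was in 8.33% (Per3) against 0.819%. Several promoters of a gene overlap in sequence, and a match is a description. Capitals mark these elements in the promoters of Ciart (chr3:95882229-95882478, minus strand), with E boxes that begin 116, 58 and 44 bases before the start, of Bhlhe41 (chr6:145865421-145865670, minus strand), with 1 that begins 153 bases before it, and of Per3 (chr4:151044666-151044915, minus strand), with D boxes that begin 205 and 158 bases before it. Bhlhe41, above background on 1 of 3 arrays at 8 weeks, and Per3 fell by 1.19 and 0.96 (log2).
Ciart: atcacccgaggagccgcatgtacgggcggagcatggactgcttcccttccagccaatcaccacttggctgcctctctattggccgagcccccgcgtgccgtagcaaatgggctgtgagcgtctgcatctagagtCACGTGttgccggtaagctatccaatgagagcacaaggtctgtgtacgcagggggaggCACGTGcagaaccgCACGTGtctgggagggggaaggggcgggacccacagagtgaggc
Bhlhe41: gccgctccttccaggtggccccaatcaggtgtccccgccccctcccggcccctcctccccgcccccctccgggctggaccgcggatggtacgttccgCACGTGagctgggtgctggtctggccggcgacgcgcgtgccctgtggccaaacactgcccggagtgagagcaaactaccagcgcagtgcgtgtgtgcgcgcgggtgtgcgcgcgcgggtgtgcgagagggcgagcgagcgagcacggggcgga
Per3: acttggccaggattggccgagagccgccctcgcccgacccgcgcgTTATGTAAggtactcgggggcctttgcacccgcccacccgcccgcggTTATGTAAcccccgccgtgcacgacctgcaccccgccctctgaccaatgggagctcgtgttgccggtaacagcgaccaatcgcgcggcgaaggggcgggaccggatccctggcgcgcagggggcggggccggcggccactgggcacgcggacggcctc

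Targets of glucocorticoid hormone mostly fell: 10 of 13 measured genes fell and 3 rose, the same counts in all 21 settings, with a median of -0.63. Zbtb16, a zinc finger repressor, fell 7.16-fold from 3.92, 3.88 and 4.04 to 1.12, 1.1 and 1.11. Fkbp5, a chaperone that limits the receptor, fell 5.42-fold from 2.23, 2.32 and 2.33 to -0.04, -0.21 and -0.19, and the metallothionein Mt2 fell 2.41-fold. Angptl4, an inhibitor of lipoprotein lipase, rose 2.14-fold. Immediate early genes, which respond within minutes to stimulation or handling of tissue, went up in 10 of 18 measured cases (6 with median scaling) and down in 3, with a median of 0.33. Egr1 rose 8-fold, from 0.33, 0.02 and 0.29 to 3.17, 3.21 and 3.27 (log2 3.00 ± 0.07, limma adjusted p = 8.8e-13), Fos 3.35-fold (2.13-fold with normexp) and Myc 2.17-fold, while Ccn2, a matricellular growth factor gene, fell 2.18-fold. The part of tissue handling in these values was not tested.

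Genes of the extracellular matrix and of fibroblasts fell. In the collagen and matrix list 20 of 28 measured genes fell, 1 rose and 7 did not pass, with a median of -0.72. Loxl1, an enzyme that crosslinks elastin, fell 5.12-fold from 2.66, 2.59 and 2.67 to 0.26, 0.35 and 0.24. The microfibril protein Mfap5 fell 2.94-fold, elastin (Eln) 2.38-fold with 2 of 3 arrays above background at 8 weeks, and thrombospondin Thbs2 was at least 1.99-fold lower. The gene that rose was Lox, the sister enzyme of Loxl1 (log2 1.09), named after its value was seen. In the list of fibroblast and preadipocyte markers 11 of 12 genes fell and 0 rose (median -0.57, or -0.50 with 1 at its bound). Col14a1 and Clec3b fell 2.14-fold each, Pi16 fell 2.12-fold, and Dpp4, a marker of preadipocyte progenitors, was at least 1.47-fold lower. Among smooth muscle and pericyte genes 8 of 13 fell (4 with median scaling) and 2 rose. The smooth muscle actin Actg2 fell 6.03-fold, calponin (Cnn1) 2.3-fold and desmin (Des) 1.87-fold, while smooth muscle myosin (Myh11) rose 1.42-fold. Over the arrays of the other ages Des tracked the sarcomere mean (Pearson r 0.98), whereas Actg2, Cnn1 and Myh11 ran against it (-0.86, -0.99 and -0.97). The cell type behind the fall of Des was not tested.

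Vessel and nerve genes changed little apart from a few. Of 18 endothelial genes 7 rose (38.9%, against 25.0% of all genes; 3 with median scaling), 3 fell (16.7% against 25.3%) and 8 did not pass, with a median of 0.08. Cldn5, the claudin of endothelial tight junctions, rose 3.84-fold from 2.77, 2.75 and 2.67 to 4.63, 4.71 and 4.68 (limma adjusted p = 1.4e-11). Robo4 and Vwf rose 1.52-fold and 1.44-fold and Emcn fell 1.61-fold. Of 11 nerve and Schwann cell genes 4 rose (1 with median scaling) and 2 fell, shares of 36.4% and 18.2% that lie near the 25.0% and 25.3% of all genes. The myelin genes Prx and Pmp22 fell 1.56-fold and 1.38-fold, and Mag and S100b rose 1.48-fold and 1.36-fold. The calls of Mag and S100b were not stable: that of Mag was lost without 4 week replicate 3 and without 8 week replicate 1, and that of S100b with median scaling.

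Genes that present antigen on class I molecules rose. In the antigen presentation list 11 of 17 measured genes rose, 0 fell and 6 did not pass, with a median of 0.47. Psmb9, a subunit of the immunoproteasome, rose 2.32-fold from 1.68, 1.79 and 1.87 to 2.90, 3.04 and 3.04 (log2 1.21 ± 0.06, limma adjusted p = 1.1e-09). The peptide transporter Tap1 and the class I transactivator Nlrc5 each rose 2.23-fold and Psmb8 1.78-fold. The 6 that did not pass all belong to the class II pathway (Cd74, H2-Aa, H2-Ab1, H2-Eb1, H2-DMa and H2-DMb1), with changes of -0.14 to 0.27 (log2). Whether the change of class I genes differs from that of class II genes was not tested. Of 22 interferon response genes 13 rose (6 with median scaling) and 1 fell, and 12 of the 22 tracked the sarcomere mean over the arrays of the other ages at a Pearson r over 0.9. The chemokine Cxcl10 rose 5.12-fold (3.34-fold with normexp) from -2.01, -2.11 and -1.91 to 0.30, 0.36 and 0.38, and the guanylate-binding protein Gbp3 1.82-fold and Xaf1 1.5-fold. Irf7 fell by 0.78 (log2), but its array of 4 week replicate 2 read -0.21 beside -1.33 and -1.30 on the others, and its call was lost with only the 6 arrays in the fit and with a replicate block.

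Markers of resident macrophages mostly fell, 11 of 17 measured with 2 up (median -0.31). The folate receptor Folr2 fell 2.29-fold and Mertk, which acts in the uptake of dead cells, 1.77-fold, whereas Itgam rose 2.07-fold and Cx3cr1 1.64-fold. Only 1 of 3 probes of Itgam passed, and its call was lost with the mean of its probes (1.33-fold). Among neutrophil and mast cell genes 4 of 10 rose and 4 fell (40.0% each, against 25.0% and 25.3% of all genes). The calprotectin genes S100a9 and S100a8 rose 2.91-fold and 2.76-fold and Kit, the stem cell factor receptor, 3.01-fold, while the mast cell protease Cpa3 fell 2.79-fold (1.84-fold with normexp). Of 12 lymphocyte genes 4 fell and 1 rose; the share that fell, 33.3%, is near the 25.3% of all genes and is no result about the list. Cd3d fell 1.81-fold, with 2 of 3 arrays above background at 8 weeks, Gzma 1.6-fold and Cd2 1.45-fold, and the B cell gene Cd79b rose 1.51-fold.

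Genes of cell division and growth changed modestly. Of 26 measured cell division genes 11 fell (42.3%, against 25.3% of all genes) and 5 rose, with a median of -0.18; 7 fell with median scaling (26.9%, against 15.8% of all genes in that setting) and 6 with normexp. Mki67, a marker of dividing cells, fell 1.67-fold from -1.42, -1.50 and -1.50 to -2.40, -2.05 and -2.20. Tk1 fell 1.7-fold and Cenpe 1.66-fold, each above background on 1 of 3 arrays at 8 weeks, and Ccnb1 rose 1.61-fold. The call of Cenpe was lost with normexp. Of 14 imprinted growth genes 8 fell (57.1%, against 25.3% of all genes) and 1 rose. With normexp 5 fell. Besides Nnat, Magel2 fell 2.1-fold, the cell cycle inhibitor Cdkn1c 1.93-fold, and Peg3 1.63-fold, the last a call that ended with normexp and without 4 week replicate 3 or 8 week replicate 2. The preadipocyte factor Dlk1 did not pass (log2 0.00 ± 0.08), except as a fall by the mean of its probes, and Igf2 was not measured here. In the growth hormone and insulin-like growth factor list 7 of 13 fell (53.8%, against 25.3% of all genes) and 3 rose. Igfbp6 fell 2.11-fold and Igfals 1.86-fold, while Socs2, a feedback inhibitor of growth hormone signalling, rose 1.99-fold and Igf1r 1.58-fold.

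Of 19 genes of the heat shock and unfolded protein response 7 rose and 3 fell, shares of 36.8% and 15.8% against 25.0% and 25.3% of all genes. The pseudokinase Trib3, a target of the integrated stress response, rose 3.18-fold from 2.02, 2.14 and 2.08 to 3.72, 3.84 and 3.69, with Atf5 up 2.54-fold and Xbp1 2.05-fold. Chac1, another target of that response, fell 3-fold from 1.73, 1.76 and 1.79 to 0.20, 0.09 and 0.22. Of 20 proteasome genes 7 rose, against 25.0% of all genes, and 0 fell, against 25.3%. With median scaling 1 of the 20 rose, a share below the 9.25% of all genes in that setting. The count that rose is therefore no result about the list. Psmc2 rose 1.45-fold, and Psma3, Psma7 and Psma2 1.34-fold, 1.33-fold and 1.28-fold, 3 calls that were lost with median scaling. Of 20 ribosomal protein genes 1 fell, Rps4x at 1.14-fold, a call lost in 8 of 21 settings, and 19 did not pass.

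Outside the lists of muscle genes the largest rise was that of Sgip1, an adaptor of endocytosis known from neurons. It read -5.58, -5.41 and -6.28 at 4 weeks and 2.28, 2.46 and 2.31 at 8 weeks, at least 74.6-fold higher (limma adjusted p = 7e-12). On the other 10 arrays it read -7.02 to -5.55, so the 8 week arrays stood alone. Syt10, a synaptotagmin, rose 20.3-fold from -1.21, -0.87 and -1.13 to 3.46, 3.35 and 3.02, but it had read 1.5 to 4.02 before 4 weeks. Fras1, a basement membrane protein gene, was at least 6.14-fold higher, Olfr1305 at least 6.11-fold (3.32-fold without 8 week replicate 1 and 10.1-fold without replicate 2), Tmcc2 at least 5.17-fold and Prm1, a protamine gene, at least 4.24-fold, each above background on 0 of 3 arrays at 4 weeks. Nfe2l3, Tmem132b and 1700018G05Rik were dim at 4 weeks too, and at least 2.48-fold, 2.3-fold and 1.93-fold higher. Olfr1305 ranged from -2.72 to 0.50 among the 8 week arrays and Calcoco2, which rose 8.43-fold (3.92-fold with normexp), from -0.99 to 0.89. Prr32 and Dusp8, a phosphatase of stress kinases, rose 9.49-fold and 7.01-fold, each above background on 1 of 3 arrays at 4 weeks, so that these folds rest mostly on signals at background; with normexp they were 3.89-fold and 3.58-fold. Nts, the neurotensin gene, rose 6.71-fold from -2.06, -2.07 and -1.95 to 0.66, 0.74 and 0.75. Arntl and Egr1 complete the 15 largest rises.

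Major urinary protein genes stood out among the largest falls. Mup17 read 1.03, 0.95 and 1.05 at 4 weeks and -4.67, -4.68 and -4.18 at 8 weeks, at least 22.6-fold lower (limma adjusted p = 9.3e-09). Mup1 was at least 22.8-fold lower and Mup20 at least 6.75-fold, Mup18 fell 36.6-fold with 1 of 3 arrays above background at 8 weeks (12.4-fold with normexp), and Mup19 fell 29.4-fold (13.9-fold with normexp), from 2.25, 2.23 and 2.35 to -2.39, -2.58 and -2.83, above background throughout. These genes are near-identical copies whose probes could share signal, so the values of the 5 are uncertain and not independent. Mup17 read 2.49 to 2.53 at E18 and -7.22 to -5.50 at P4 and P10, so its level was high at E18 and 4 weeks and low at the 3 other ages. Sgk2, a kinase gene, fell 45.5-fold, from 1.87, 2.03 and 1.86 to -3.55, -3.84 and -3.37, with 1 of 3 arrays above background at 8 weeks, or 16.6-fold with normexp. It had read 1.95 to 4.38 at the earlier ages. The other 9 largest falls include genes known from striated muscle that are on none of the muscle lists. Of these Smtnl1 was at least 9.94-fold lower, Asb11 at least 9.86-fold, Myadml2 at least 8.81-fold, Cav3, the muscle caveolin, at least 8.36-fold, Rbfox1, a splicing factor, at least 7.71-fold and Fitm1 at least 7.2-fold. Klhl31, Dhrs7c and Vgll2 were at least 7.15-fold, 6.98-fold and 6.6-fold lower.

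Markers of other tissues changed in mixed directions, and some of them were bright at both ages. Of 12 liver genes 6 were measured, 3 fell and 1 rose: beside Mup1, Cyp2e1 fell 2.99-fold and Apoa2 1.54-fold, with its 2 probes past the test in opposite directions. Haptoglobin (Hp) rose by 0.18 (log2), a call lost in 10 of 21 settings, and read 8.24 at 4 weeks and 8.42 at 8 weeks (means). Albumin (Alb), Apoa1 and Ttr, defining liver genes, were not among the genes that passed the filter. Of 6 measured red blood cell genes 4 fell, Alas2 1.41-fold and the globins Hbb-b1, Hba-a1 and Hbb-bt 1.31-fold, 1.3-fold and 1.28-fold, the call of Hbb-b1 being lost with median scaling. Hba-a1 read 8.45 at 4 weeks and 8.06 at 8 weeks (means). Of 5 measured skin and epithelium genes Krt10 fell 1.35-fold and Trp63 rose 1.25-fold, a call lost in 8 of 21 settings. Of 3 measured genes of thymus and lymph node stroma 1 fell, Cxcl13, at least 1.98-fold. Of 5 measured sex-linked genes Kdm5c fell 1.19-fold, a call lost with median scaling and with the mean of its probes. With 3 to 6 genes measured a list, these counts say little beside the 25.0% and 25.3% of all genes. The part of these tissues in the other results was not tested.

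Levels at the earlier ages, mostly from the other slide and at P10 from arrays with low signal of the Y-linked genes Ddx3y and Eif2s3y, are given as values only. Dio2 read 0.77 to 0.84 at E18, 3.87 to 4.07 at P4, 1.02 to 1.1 at P10, 1.75 to 1.88 at 4 weeks and -1.99 to -1.90 at 8 weeks, its lowest. Ucp1 read 8.87 to 8.94 at E18, 9.20 to 10.04 over P4 and P10, and by 8 weeks (8.73 to 8.91) overlapped its level at E18. Fasn read 1.75 to 1.82 at E18, -1.78 to -0.88 over P4 and P10, and was highest at 8 weeks, whereas Scd2 at 8 weeks (5.40 to 5.42) lay below E18 (5.78 to 5.79). G0s2 read 6.36 to 6.38 at E18 and 4.49 to 5.16 over P4 and P10, above its 8 week level throughout. Cldn5 read 5.01 to 5.68 before 4 weeks, so its rise to 8 weeks left it below those arrays. Loxl1 lay between 1.94 and 2.80 at all earlier ages, and only the 8 week arrays were near 0.3.

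**Figure D5:**
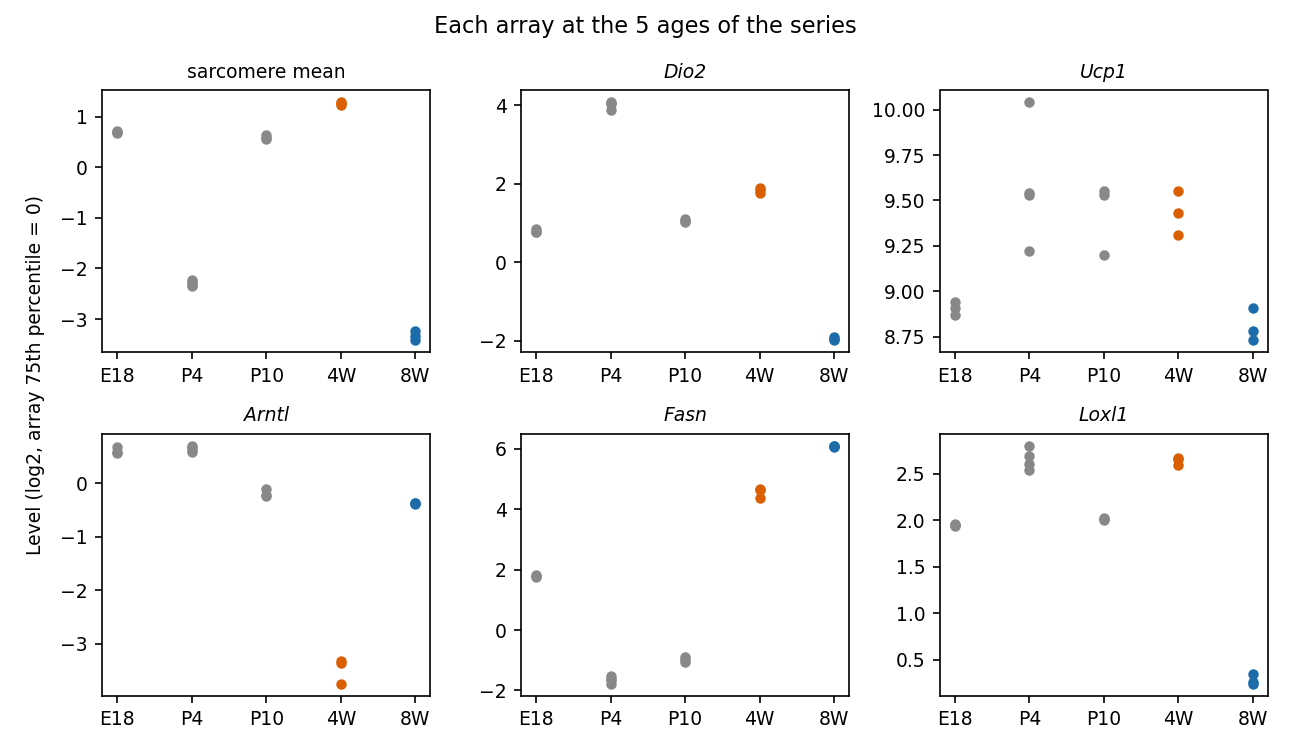
Level on each of the 16 arrays, by age, of the mean of 45 sarcomere genes and of Dio2, Ucp1, Arntl, Fasn and Loxl1, in log2 with the 75th percentile of the array at 0; 4 weeks is orange, 8 weeks blue and the ages before them grey. The sarcomere mean, Dio2 and Loxl1 are lowest at 8 weeks, Fasn is highest there, and Arntl is lowest at 4 weeks. The sarcomere genes were kept for their signal at 4 and 8 weeks, so the order of their mean is partly set by that filter.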

How the data were processed

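Gene expression was measured on 16 Agilent 1-colour arrays, of which 6 are compared here. The deposited scanner files hold intensity values; per the file headers these processed signals are background subtracted and detrended by Agilent Feature Extraction 11.5.1.1, while the submitters' processing notes name 11.0.1.1. The log2 values of the authors' deposited series matrix are the same signals after quantile normalization, as tested on the files, and served as an alternative. Control spots and 1189 marked spot values of the 6 arrays were left out, and spots of a probe were averaged. Of 55681 probes, 27656 had a symbol through their RefSeq accession, for 20972 genes; probe positions are on mm9, per the file headers, and are not used here.

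Signals were taken as log2 minus each array's 75th percentile. Probes well above background on at least 3 of the 6 arrays were kept, and the one with the highest mean stood for its gene, which gave 13259 genes; of 3227 with several probes, 109 had probes past the test in both directions. A single linear model with a mean for each age was fitted to all 16 arrays with limma 3.58.1 in R 4.3.3, and the two-sided test of 8 weeks minus 4 weeks was adjusted over all genes. The fit was tested on simulated data. Members and lists were chosen with earlier results of these data known. The text names every measured sarcomere gene, a panel of 13 genes, the 15 largest rises and falls outside the muscle lists that passed with no overlap between the ages, and up to 4 such genes with the largest changes from each list; a few genes that these rules pick are not reported here, and other names were chosen after their values were seen. Alternatives were other scaling, background correction, filters, probe rules, samples, blocks and variance models, the sarcomere mean as a covariate, and each array left out in turn.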

Additional observations from a re-analysis of the deposited data

How the results depend on the processing

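In 20 of 22 alternative fits the count of all genes past limma's test stayed within 1.5 times its value of 6674; the exceptions follow. Scaling by the array median gave 3324 genes in all and 3243 outside the muscle lists. With the sarcomere mean of each array as a covariate 0 genes passed, in all and outside the muscle lists, with 1140 at an unadjusted p under 0.05; this mean varies by 0.0505 (SD) within an age and by -4.59 between the ages, and the median SE rose from 0.0813 to 2.68, so covariate and age cannot be told apart. Counted only over probes above background on all 6 arrays, 17 of 19 sarcomere genes fell, fewer because fewer were tested. With normexp background correction 19 named genes with a measured fold moved by over 1.5 times, all toward a smaller fold and each given in the report. The counts that set dim genes at their bound were added after the data were seen. Leaving out each array in turn gave 6019 to 6170 genes in all, 5938 to 6088 outside the muscle lists and 42 to 43 sarcomere genes. Dlk1 turned to -0.19 (limma adjusted p = 0.022) with the mean of its probes. Median scaling also moved the lists' counts, mostly as given in the report; beyond those, general adipocyte genes that rose went from 7 to 4, lipid droplet genes that rose from 4 to 0, fatty acid oxidation genes that rose from 4 to 1, cell division genes that rose from 5 to 1, and fatty acid synthesis genes that fell from 5 to 3. With the filter on all 6 arrays, other muscle fibre genes that fell went from 32 to 14 and cell division genes that fell from 11 to 5, and with normexp lipid droplet genes that rose from 4 to 2. Quantile normalization and the series matrix each left 2 of 4 fatty acid oxidation genes that rose, and in the series matrix 4 ribosomal protein genes fell in place of 1.

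The labels give replicate numbers 1 to 3 at both ages. Deviations of same-numbered arrays correlated at 0.0727, 0.0494 and 0.0704, and each array best with its own number, but under 0.1, so the numbers were not taken as pairs; with a replicate block 6165 genes passed in all, 6081 outside the muscle lists and 42 of the sarcomere, and lipid droplet genes that rose and fatty acid synthesis genes that fell went to 2 and 3. Of 211 named genes, 187 kept their call and direction in every setting with a value. Levels near background limit the folds of dim genes, which are given as bounds, and no depth is defined for arrays. Settings that count genes above background on all 6 arrays (6194) or leave out genes following the sarcomere mean (5965) were chosen after seeing the data.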
